A study of Mus musculus with 2 samples.

Results

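The Iroquois genes Irx1, Irx2, Irx3 and Irx5 were followed through the cell types of the fetal mouse ovary. They were found by symbol in both count matrices and make up 4 of the 27998 genes measured. Single-cell RNA sequencing was performed on ovaries of female E15.5 embryos, from which the mesonephroi had been removed. The KO embryos were homozygous for a deletion within Nr3c1, which encodes the glucocorticoid receptor (GR). That allele came from the floxed line Nr3c1tm1.1Jda after a cross to a β-actin Cre, so the deletion was not limited to 1 cell type. WT embryos kept an intact Nr3c1. KO and WT embryos both carried the transgene Tg(Pou5f1-EGFP)2Mnn, whose GFP marks germ cells. Ovaries of 2 KO embryos and of 4 WT embryos were pooled by genotype, and sorted GFP-positive germ cells were mixed with GFP-negative somatic cells at 60 to 40 before capture. Each pool gave 1 library.

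Iroquois proteins are homeodomain transcription factors of the TALE class, in which extra residues lengthen the loop between the first and second helix. The mouse genes lie in a pair of clusters that arose by duplication. Members of a cluster are often transcribed in overlapping patterns. In the fetal ovary Irx3 and Irx5 are known from the pregranulosa cells, the supporting cells that enclose germ cells in follicles, where they bear on contacts between the supporting cell and the oocyte.

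In GRCm38, Irx3 (ENSMUSG00000031734) lies at chr8:91798525-91802067 on the minus strand and Irx5 (ENSMUSG00000031737) at chr8:92357625-92376286 on the plus strand, 555.6 kb apart. Irx6 follows Irx5 after 298.0 kb, and the noncoding gene Crnde starts 1.5 kb from Irx5 on the other strand. Irx1 (ENSMUSG00000060969) lies at chr13:71957921-71963723 on the minus strand, Irx2 (ENSMUSG00000001504) at chr13:72628820-72634198 on the plus strand, and Irx4 is the remaining gene of that cluster. The antisense gene Irx3os overlaps Irx3 on the opposite strand. The strand setting of the counting was not given in the sources used here, so reads of Irx3 and Irx3os could not be told apart with certainty.

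The stretch of 30 coding bases most alike in the 4 genes is given to show the homeobox by which they are named as a family. It is written for each gene 5′ to 3′, and capitals mark the bases that differ from Irx3.
Irx3 (chr8:91800607-91800636, minus strand): gcctggctcaacgagcaccgcaagaacccg
Irx5 (chr8:92359675-92359704, plus strand): gcctggctcaacgagcaccgcaagaacccg
Irx1 (chr13:71960103-71960132, minus strand): gcctggctcaacgaAcaccgcaagaacccg
Irx2 (chr13:72630712-72630741, plus strand): gcctggctcaacgaAcaccgAaagaacccg
Irx5 had all 30 bases in common with Irx3, Irx1 had 29 and Irx2 had 28. The longest run shared by Irx3 and Irx5 anywhere in their transcripts was 50 bases, and that of Irx2 and Irx5 was 65 bases. In the last 500 bases, near which a 3′ library takes its reads, the longest run shared by any pair was 13 bases. The window was chosen for its likeness and does not measure how alike the whole coding sequences are.

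The WT library held 11430 cell barcodes and 168483330 UMIs (unique molecular identifiers, 1 for each captured transcript), and the KO library held 17829 barcodes and 186117981 UMIs. Cells within the limits of the study numbered 9045 in WT, with a median of 15685 UMIs, and 15502 in KO, with a median of 10194.5. Of these, 27 carried a barcode sequence also present in the other library. Clusters were named from marker genes as germ-like (6793 WT and 10204 KO cells), granulosa-like (933 and 2032), theca-like (844 and 1951), epithelia-like (399 and 1076), endothelia-like (30 and 136), immune-like (31 and 50) and erythroid-like cells (15 and 53). The Iroquois genes were taken out before clustering, so no class rests on them. Nr3c1, the deleted gene, was at 71.8 CPM (UMIs of the gene per 1000000 UMIs of the class) in WT and 11.6 CPM in KO in germ-like cells, a log2 KO over WT ratio of -2.63. Scrublet called 2.60% of WT and 6.60% of KO cells doublets, and these cells were kept unless stated. With 1 library per genotype no test across replicates was possible. The 95% intervals given for counts, ratios and shares therefore cover counting error only.

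The 4 members, from 2 clusters of Iroquois genes, differed in the cell class of their highest level. Irx3 and Irx5 were highest in granulosa-like and epithelia-like cells, and Irx2, with a trace of Irx1, in germ-like cells. A log2 ratio of 2 or more between classes, among genes with at least 100 UMIs in the pair of classes, counted as higher. By that rule 2 of the 4 members, Irx3 and Irx5, were higher in granulosa-like than in germ-like cells in both libraries, as were 18.3% of all genes in WT and 19.4% in KO. The same 2 members were higher in epithelia-like than in germ-like cells, against 15.9% of genes in WT and 17.7% in KO. Irx2 alone was higher in germ-like than in theca-like cells, against 11.4% of genes in WT and 5.03% in KO. In KO this call was lost with limits on cells common to both libraries, at a log2 ratio of 1.97.

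**Figure D1:**
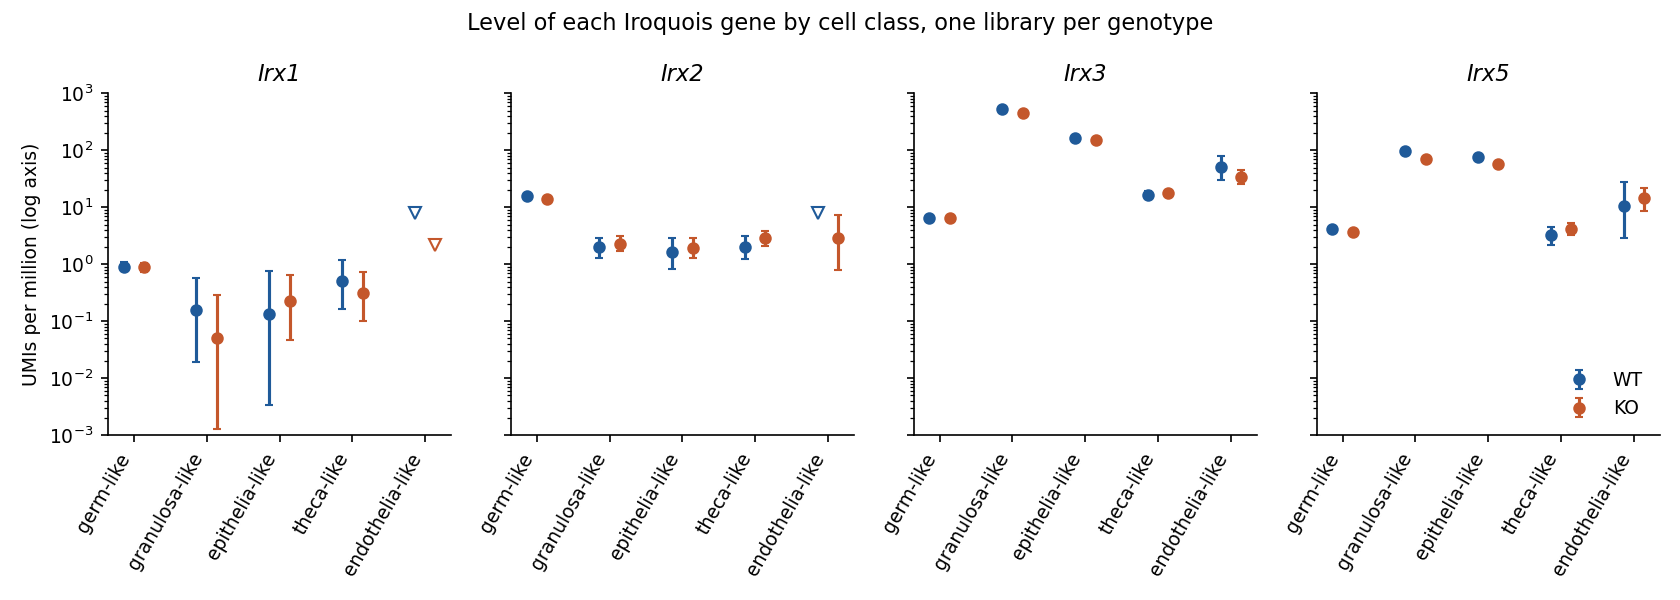
Level of each gene (CPM, log axis) in 5 cell classes of the WT (blue) and KO (orange) library, with 95% counting intervals; open triangles mark classes with 0 UMIs and stand at the level of 3 UMIs. Irx2 was highest in germ-like cells and Irx3 and Irx5 in granulosa-like cells, in both libraries.

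Irx3 was at 526.9 CPM (514.3 to 539.8) in WT and 451.8 CPM (442.4 to 461.4) in KO granulosa-like cells. Epithelia-like cells, which cover the ovary, had 164.7 CPM (155.6 to 174.3) in WT and 154.4 CPM (147.8 to 161.2) in KO. The gene was therefore 3.20-fold higher in granulosa-like than in epithelia-like cells in WT and 2.93-fold in KO, with no overlap of the intervals. Endothelia-like cells came next of the 5 classes compared, with 51.2 CPM (30.8 to 80.0) in WT and 34.5 CPM (25.4 to 45.7) in KO. Theca-like cells, the stromal class of the ovary, were lower still, at 16.4 CPM (14.0 to 19.2) in WT and 17.8 CPM (15.7 to 19.96) in KO. Germ-like cells were lowest of these 5 classes, at 6.49 CPM in WT and 6.56 CPM in KO. The order of the 5 classes was the same in both libraries, and neighbours in it did not overlap. The erythroid-like and immune-like classes, of 15 to 53 cells, were left out of this order. Irx3 there was at 16.3 and 9.47 CPM in WT, and at 45.4 CPM (32.4 to 61.8) and 26.3 CPM (14.4 to 44.1) in KO, intervals that reach those of endothelia-like cells. The granulosa-like level was 81.2-fold the germ-like level in WT and 68.8-fold in KO.

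Most granulosa-like cells had several Irx3 transcripts. The median cell held 6 UMIs in WT and 4 in KO, and 259 WT cells (27.8%) and 162 KO cells (7.97%) held 10 or more, at median depths of 12657 and 8506 UMIs. At least 1 Irx3 UMI was seen in 94.2% of WT and 91.3% of KO granulosa-like cells. Because the libraries differed in depth, each cell was also thinned at random to 3000 UMIs, which left 72.6% (69.6 to 75.4) of WT and 68.5% (66.4 to 70.5) of KO cells positive. In thinned epithelia-like cells the share was 36.6% in WT and 32.2% in KO. In thinned germ-like cells, which serve here as the class low in the gene, it was 1.90% in WT and 1.65% in KO, at median depths of 17100 and 11317 UMIs before thinning. Irx3 was thus detected across the granulosa-like class and not in a small subset of it.

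Irx5 was more evenly spread over granulosa-like and epithelia-like cells. Granulosa-like cells had 97.8 CPM (92.4 to 103.4) in WT and 69.5 CPM (65.9 to 73.4) in KO. Epithelia-like cells had 78.0 CPM (71.8 to 84.7) in WT and 56.8 CPM (52.8 to 61.0) in KO. The ratio between these classes was 1.25-fold in WT and 1.22-fold in KO, smaller than for Irx3 but with intervals above 1 in each library. Theca-like cells were low, at 3.24 CPM in WT and 4.23 CPM in KO, and germ-like cells had 4.24 and 3.64 CPM. These last 2 classes overlapped in both libraries, so their order could not be set. After thinning, 23.3% (20.6 to 26.1) of WT and 19.9% (18.2 to 21.7) of KO granulosa-like cells had an Irx5 UMI, against 60.3% and 42.8% before thinning. The share in thinned germ-like cells was 1.22% in WT and 1.06% in KO.

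**Figure D2:**
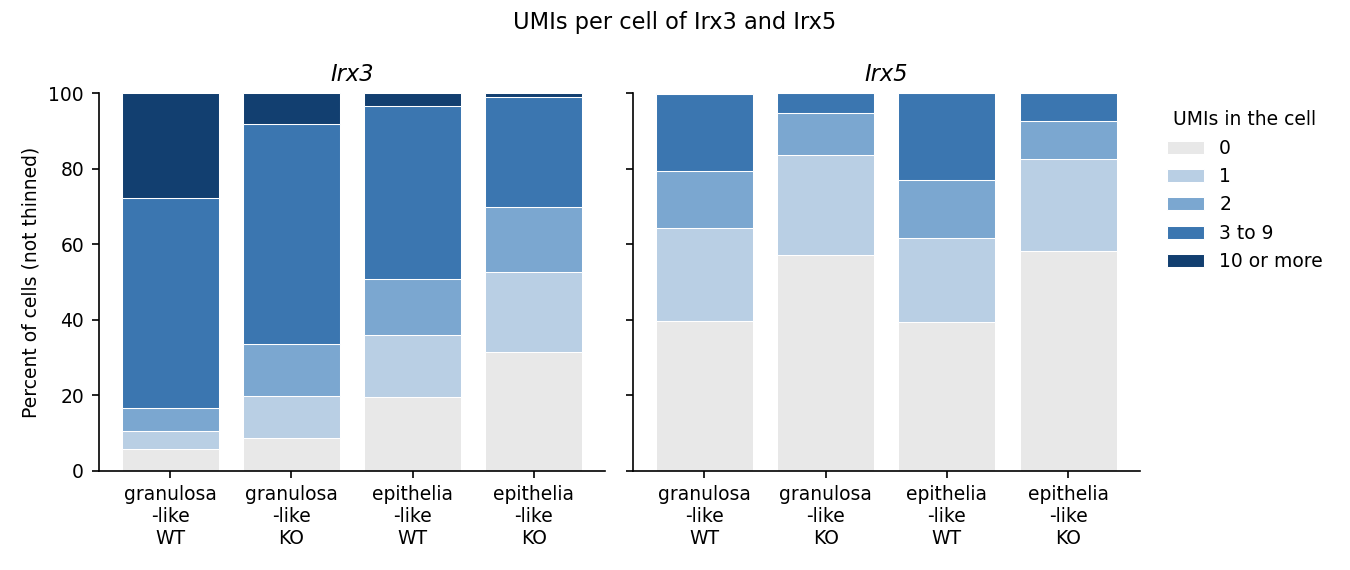
Percent of granulosa-like and epithelia-like cells (vertical axis, cells not thinned) with 0, 1, 2, 3 to 9, or 10 or more UMIs of Irx3 (left) and Irx5 (right) in each library. For Irx3 the palest part of the bar (0 UMIs) is 5.79% in WT and 8.71% in KO granulosa-like cells, and WT cells were deeper than KO cells.

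At a finer clustering (Leiden resolution 1.0) the granulosa-like class split into sub-cluster 2 (584 WT and 1342 KO cells) and sub-cluster 12 (358 and 691). Sub-cluster 2 was higher in Lgr5, a WNT target and R-spondin receptor, at 134.4 against 27.8 CPM in WT. Sub-cluster 12 was higher in Foxl2, a transcription factor of the granulosa lineage, at 7.26 against 1.86 CPM in WT. Irx3 was present in both, at 571.8 CPM in sub-cluster 2 and 439.7 CPM in sub-cluster 12 in WT, and at 518.0 and 342.4 CPM in KO. Irx5 was at 107.8 and 78.6 CPM in WT and at 84.5 and 45.0 CPM in KO. With all cells, both genes were higher in the Lgr5-high sub-cluster, Irx3 by 1.30-fold in WT and 1.51-fold in KO and Irx5 by 1.37-fold and 1.88-fold. Sub-cluster 12 also held more germ marker UMIs (2594 CPM in WT and 4769 CPM in KO, against 593.0 and 531.6 CPM) and more called doublets (10.1% and 30.0%, against 2.23% and 1.71%). Without called doublets the sub-clusters were closer, with Irx3 at 587.7 and 497.8 CPM in WT and at 526.2 and 484.1 CPM in KO. Irx5 was then at 111.3 and 85.5 CPM in WT and at 86.1 and 66.2 CPM in KO.

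Co-detection of Irx3 and Irx5 was compared with the number of cells expected if each gene were found independently of the other within 10 bins of cell depth. In granulosa-like cells 553 WT cells held both, 1.04 times the expected number (0.95 to 1.13), and 830 KO cells held both, also 1.04 times (0.97 to 1.11). Both intervals included 1. They did not allow for the ceiling on this ratio, as Irx3 was found in 94.2% of WT and 91.3% of KO granulosa-like cells. Of 563 WT and 870 KO cells with an Irx5 UMI, these 553 and 830 also held Irx3. The ratio could therefore rise little above 1 and could not decide whether the genes occur together. In epithelia-like cells the ratio was 1.12 (0.98 to 1.27) in WT, with 226 cells, and 1.20 (1.08 to 1.32) in KO, with 385 cells. Only the KO interval lay above 1 there, and the difference between libraries was not tested. Among granulosa-like cells, the listed genes found in at least 5% of cells (13 regulators of the pregranulosa fate, 11 WNT pathway genes and 7 cell contact genes) were paired with each gene in the same way. The median ratio of a list lay between 0.99 and 1.06 in either library. Single pairs ran from 0.95 to 1.04 for Irx3, where the same ceiling held, and from 0.81 to 1.17 for Irx5. The latter range was that of the cell contact genes in KO. Crnde, the neighbour of Irx5, was found with it in 113 WT cells, at a ratio of 1.11 (0.91 to 1.33), and in 153 KO cells, at 1.19 (1.01 to 1.39).

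Outside the granulosa-like and epithelia-like classes, Irx3 and Irx5 occurred together far more often than depth gave. In theca-like cells 15 WT cells held both, 4.64 times the expected number, and 30 KO cells, 4.68 times. Of these, 60.0% in WT and 86.7% in KO were called doublets, against 5.14% and 11.5% of theca-like cells with neither gene. The shares were 17.4% and 40% of cells with Irx3 alone, and 25% and 41.2% of those with Irx5 alone. Median depths were 22007 UMIs in WT and 14203 in KO with both genes, against 9912 and 6405.5 with neither. The doublet shares were not matched for depth. Granulosa markers summed to 1598 and 1353 CPM in the cells with both, against 377.3 and 359.8 CPM in those with neither. In germ-like cells 79 WT and 54 KO cells held both, 1.80 and 1.98 times the expected number. Of these, 19.0% in WT and 50% in KO were called doublets, against 1.18% and 2.97% of germ-like cells with neither. Here too the cells with both were deeper, at medians of 21946 UMIs in WT and 16576.5 in KO, against 16715 and 11165. Without called doublets, Irx3 in theca-like cells was at 10.3 CPM in WT and 7.15 CPM in KO, and Irx5 at 2.13 and 1.41 CPM. In the theca-like cells with a germ marker share at or below the class median, the levels moved the other way, to 25.4 CPM in WT and 27.4 CPM in KO for Irx3 and to 3.72 and 5.58 CPM for Irx5.

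The low level of Irx3 and Irx5 in germ-like cells was set beside that of granulosa markers, which germ cells should lack. Irx3 in germ-like cells was 2.50% (2.32 to 2.69) of its level over all somatic-like cells in WT and 3.01% (2.80 to 3.23) in KO. For the 7 granulosa markers with enough UMIs this share ranged from 1.49% to 16.1% in WT, with a median of 1.89%, and from 1.74% to 15.1% in KO, with a median of 2.21%. Irx3 lay within that range, above 4 of the 7 markers in each library. Irx5 was higher, at 7.11% (6.44 to 7.85) in WT and 8.50% (7.66 to 9.42) in KO, above 6 of the 7 markers, with the ligand gene Bmp2 as the exception. Among germ-like cells with no granulosa marker UMI (4733 in WT and 7899 in KO), Irx5 was still at 3.68 CPM in WT and 3.36 CPM in KO and Irx3 at 4.93 and 4.87 CPM. In the other germ-like cells Irx5 was at 5.32 and 4.45 CPM and Irx3 at 9.54 and 11.5 CPM. Irx3 was thus higher where a granulosa marker was also found, in both libraries and with no overlap of the intervals.

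**Figure D3:**
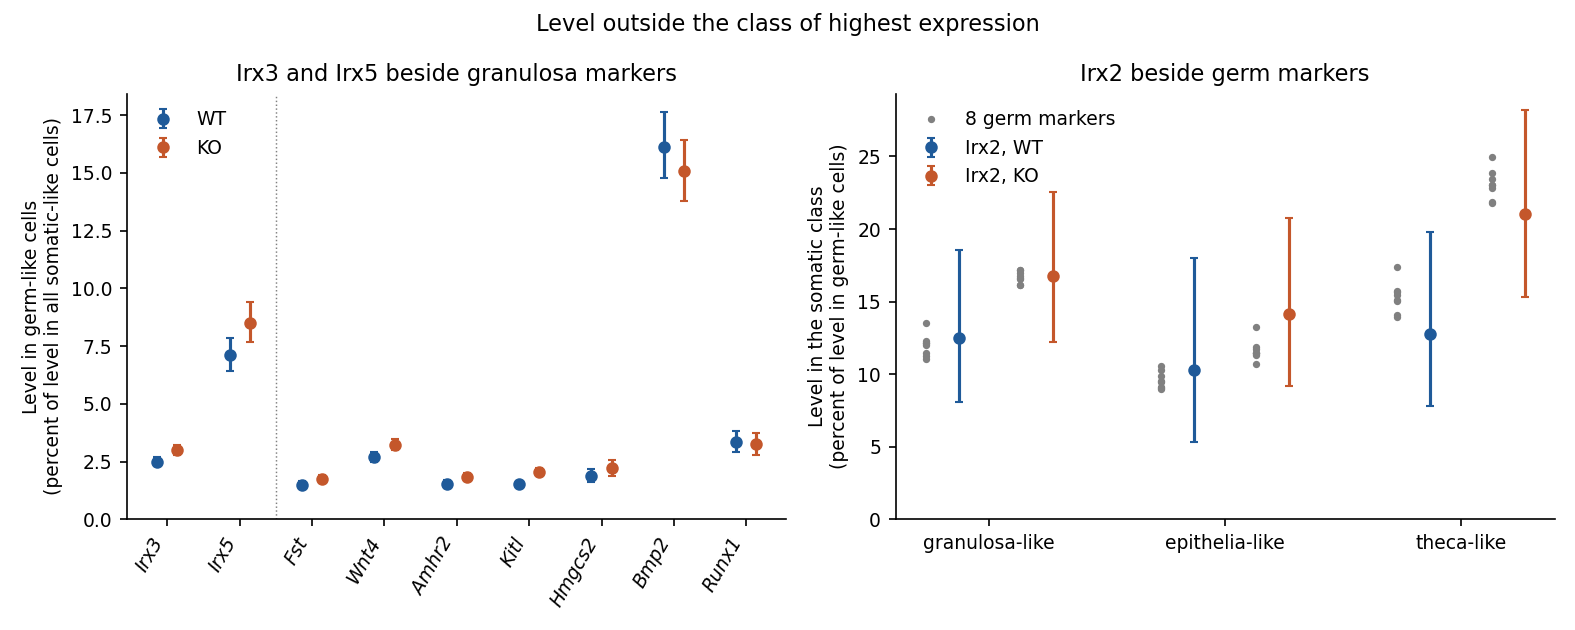
Left, level in germ-like cells as a percent of the level over all somatic-like cells, for Irx3, Irx5 and 7 granulosa markers; right, level of Irx2 in 3 somatic classes as a percent of its germ-like level, beside 8 germ markers (grey). Bars are 95% counting intervals; Irx5 stands above 6 of 7 markers, and each Irx2 interval spans markers of the same class and library.

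In endothelia-like cells Irx3 was found in 12 of 30 WT cells and 37 of 136 KO cells, at up to 4 UMIs in a cell. Irx3 there was 9.72% of its granulosa-like level in WT and 7.63% in KO. The 7 granulosa markers had a median of 5.63% in WT and 7.53% in KO and reached 25.7% and 23.5%. Irx5 was at 11.0% on 4 UMIs in WT and 20.7% on 20 UMIs in KO. The endothelia-like values of both genes were thus within the range of granulosa markers in that class, whose top was set by Kitl alone. Irx3 stood above 5 of the 7 markers in WT and 4 in KO, and Irx5 above 5 and 6. Of the endothelia-like cells, 0% in WT and 20.6% in KO were called doublets.

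Irx2 had the reverse distribution. Germ-like cells had 15.8 CPM (15.1 to 16.6) from 1910 UMIs in WT and 13.8 CPM (13.2 to 14.5) from 1682 UMIs in KO. Granulosa-like cells had 1.98 and 2.32 CPM, theca-like cells 2.03 and 2.91 CPM and epithelia-like cells 1.63 and 1.95 CPM in WT and KO. The 3 somatic classes overlapped in each library and all lay below germ-like cells. Germ-like cells were 7.82-fold above theca-like cells in WT and 4.75-fold in KO. After thinning, 4.77% of WT and 4.16% of KO germ-like cells had an Irx2 UMI, against 0.533% and 0.453% of all somatic-like cells.

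Germ RNA was itself present in somatic-like cells. The 8 germ markers were found in granulosa-like cells at 11.0% to 13.6% of their germ-like level in WT and at 16.1% to 17.2% in KO, and Irx2 there was at 12.5% (8.08 to 18.5) and 16.8% (12.2 to 22.6). In theca-like cells the markers were at 14.0% to 17.4% in WT and 21.8% to 25.0% in KO, and Irx2 at 12.8% and 21.04%. In epithelia-like cells the markers were at 9.01% to 10.6% in WT and 10.7% to 13.3% in KO. Irx2 there was at 10.3% (5.31 to 18.0) in WT and 14.1% (9.20 to 20.8) in KO, in KO above all 8 markers. Irx2 in these somatic classes thus did not exceed the germ markers in the same cells beyond its interval. When only the somatic cells with a germ marker share at or below the median of their class were kept, together with germ cells lacking a granulosa marker UMI, Irx2 in theca-like cells dropped to 0.22 CPM in WT and 0.44 CPM in KO. The log2 ratio of germ-like over theca-like cells then rose from 2.97 to 6.15 in WT and from 2.25 to 4.99 in KO. Among germ-like cells, by contrast, the Irx2 level hardly depended on granulosa markers, at 15.55 CPM in WT cells without and 16.4 CPM in those with such a UMI.

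Irx1 was near the limit of detection. Germ-like cells had 110 UMIs in WT, or 0.91 CPM (0.75 to 1.10), and 108 UMIs in KO, or 0.89 CPM (0.73 to 1.07). Granulosa-like cells had 2 UMIs in WT and 1 in KO, theca-like cells 5 in each library, and epithelia-like cells 1 and 3. The log2 ratio of germ-like over granulosa-like cells was 2.52 (0.64 to 5.59) in WT and 4.11 (1.60 to 9.42) in KO. Over theca-like cells it was 0.85 (-0.42 to 2.50) in WT, which did not separate these classes. Irx1 and Irx2 were found together in 33 WT and 21 KO germ-like cells, 1.24 (0.85 to 1.74) and 1.21 (0.75 to 1.85) times the expected number. Of the 2 Iroquois genes outside the 4 members, Irx4 was at a like trace in germ-like cells (0.66 CPM in WT and 0.53 CPM in KO), and Irx6 had 2 and 1 UMIs among all germ-like cells.

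Within the germ-like cells, Irx2 varied by cluster. The lowest level in each library was that of cluster 9, led by Phlda2, Rhox5, Rec8 and Dppa3, at 8.39 CPM (6.40 to 10.8) in WT and 7.13 CPM (5.44 to 9.18) in KO. Dppa3 is a gene of early germ cells. Cluster 5, led by Stra8, a gene needed for entry into meiosis, was next, at 8.99 CPM (6.71 to 11.8) and 11.0 CPM (9.70 to 12.5). The other 5 clusters lay between 13.9 and 18.1 CPM in WT and between 12.8 and 18.5 CPM in KO. In WT, clusters 9 and 5 overlapped each other, and cluster 9 lay below all of the other 5. Cluster 5 just reached cluster 4 in WT. In KO, cluster 9 lay below every other cluster, while cluster 5 overlapped clusters 4 and 6. The highest WT level was that of cluster 0, led by Myom3, at 18.1 CPM. Irx1 had 0 UMIs in cluster 9 in both libraries, which allows up to 0.42 CPM in WT and 0.36 CPM in KO, and was at 1.20 CPM in WT and 1.58 CPM in KO in cluster 0. Irx1 also had 0 UMIs in cluster 4 in WT, which allows up to 0.27 CPM, and 11 UMIs there in KO, so its absence was not limited to cluster 9.

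**Figure D4:**
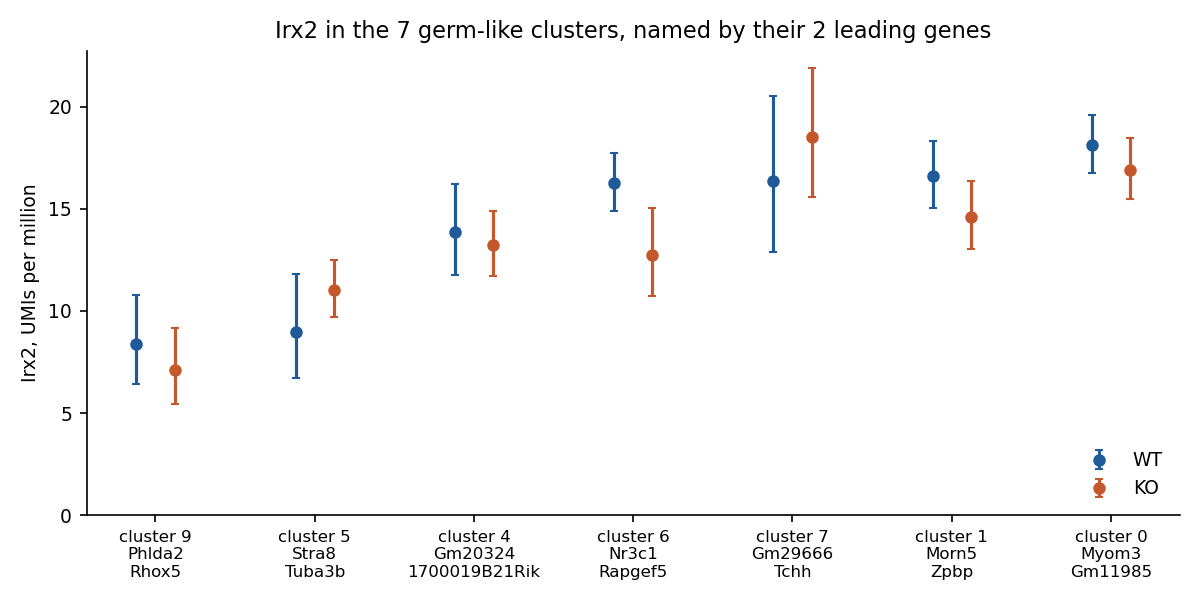
Irx2 level (CPM) in the 7 germ-like clusters of each library, ordered by the WT level and labelled with their 2 leading genes; bars are 95% counting intervals. Clusters 9 and 5 stand lowest in both libraries, at 7.13 to 11.0 CPM, and cluster 5 overlaps cluster 4 in each library.

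The KO and WT libraries were then compared for each gene in each class. A log2 ratio of 0.5 in either direction, in genes with a sum of at least 100 UMIs in WT and KO, was the size counted as a difference. In granulosa-like cells 0 of the 2 members with enough UMIs passed it, against 5.56% of all 11098 genes. Irx5 was just inside the limit, lower in KO by a log2 ratio of -0.49 (-0.60 to -0.38), or 71.1% of the WT level. Of all genes, 2.47% were at or below that ratio. Irx3 was lower in KO by -0.22 (-0.27 to -0.18), or 85.7% of the WT level, with 14.7% of genes at or below it. Both intervals lay below 0, as did those of 15.0% of genes. Irx5 passed the limit with limits on cells common to both libraries, at -0.57, and after the removal of cells rich in germ markers, at -0.51. The Irx5 ratio was nearer to 0 without called doublets, at -0.34, and after thinning, at -0.31. The thinned ratio rests on fewer UMIs, with 217 WT and 404 KO cells holding an Irx5 UMI.

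In epithelia-like cells Irx5 was lower in KO by a similar ratio, -0.46 (-0.62 to -0.30), with 1.96% of genes at or below it, and Irx3 by -0.09 (-0.20 to 0.01). Neither passed 0.5, against 3.84% of genes, and 1 of these 2 members had an interval below 0, against 6.86% of genes. In theca-like cells the 1 member with enough UMIs, Irx3, had a ratio of 0.11 (-0.17 to 0.40), against 6.81% of genes past 0.5. In germ-like cells 0 of 4 members passed 0.5, against 7.89% of genes. Irx2 was at -0.20 (-0.29 to -0.10) and Irx5 at -0.22 (-0.41 to -0.03), while Irx3 was at 0.02 (-0.13 to 0.16) and Irx1 at -0.04 (-0.44 to 0.36). Intervals below 0 were common in this deeply counted class, at 36.5% of genes. Irx5 was at a ratio below 0 in the 3 classes where it had enough UMIs. In granulosa-like cells 6084 of all 11098 genes were below 0. In germ-like cells 22.4% of genes were at or below the Irx5 ratio, and the median gene was at -0.05. In theca-like cells, with 32 WT and 67 KO UMIs and so just short of the minimum, Irx5 was above 0, at 0.38 (-0.24 to 1.04). The genotype, the pool of embryos and the capture run cannot be told apart.

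**Figure D5:**
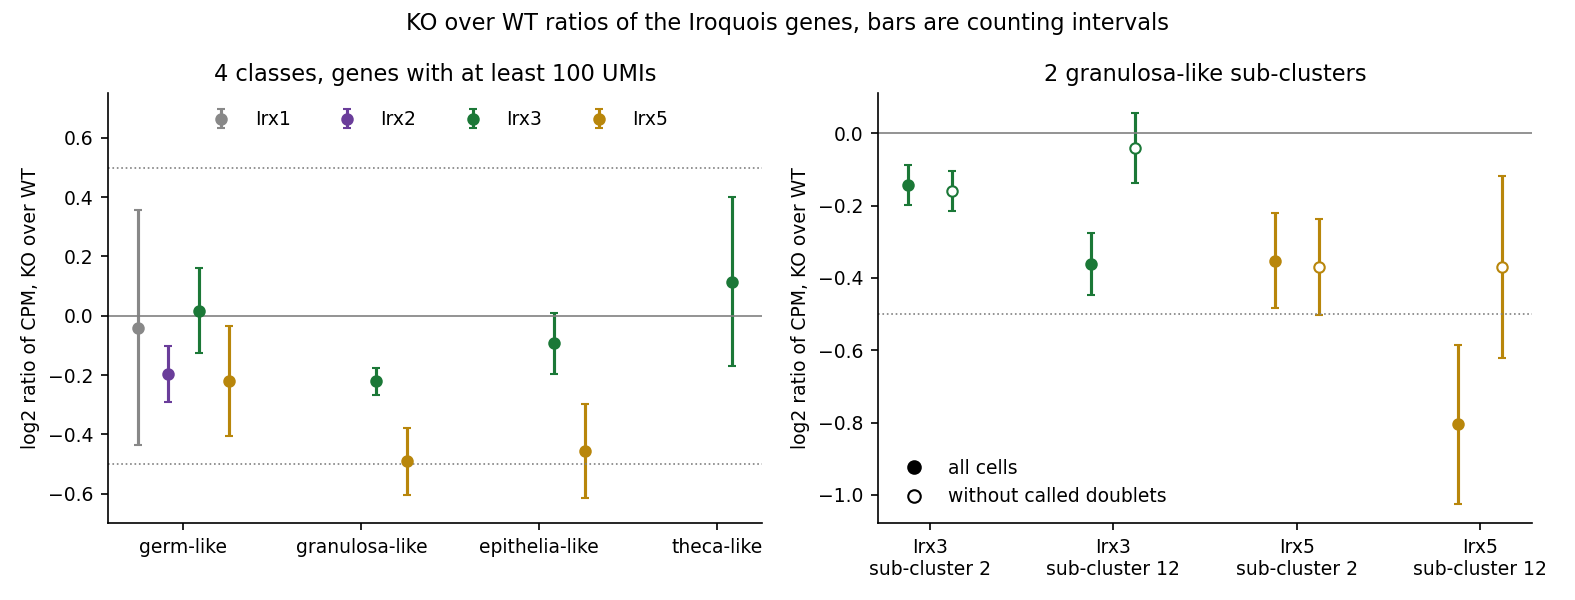
log2 ratio of CPM in KO over WT with 95% counting intervals; left, members with at least 100 UMIs in 4 classes; right, Irx3 and Irx5 in the 2 granulosa-like sub-clusters with all cells (filled) and without called doublets (open). Dotted lines mark a ratio of 0.5; Irx5 in sub-cluster 12 moves from -0.80 to -0.37 when doublets are left out.

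With all cells, the 2 granulosa-like sub-clusters differed in this comparison for both Irx3 and Irx5. In sub-cluster 2, Irx5 was at -0.35 (-0.48 to -0.22) and Irx3 at -0.14 (-0.20 to -0.09), and 3.30% of genes passed 0.5. In sub-cluster 12, Irx5 was at -0.80 (-1.02 to -0.59), past the limit, and Irx3 at -0.36 (-0.45 to -0.28), and 12.5% of genes passed 0.5. Without called doublets, Irx5 was at -0.37 in each sub-cluster, with intervals of -0.50 to -0.24 and -0.62 to -0.12. Irx3 without doublets was at -0.16 (-0.22 to -0.10) in sub-cluster 2 and at -0.04 (-0.14 to 0.06) in sub-cluster 12. The order of the sub-clusters was thus reversed for Irx3, with intervals that overlapped. The share of genes past 0.5 was not computed without doublets. The setting without doublets was chosen after the data were seen.

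Irx3 had a KO over WT ratio with an interval above 0 in 3 of the 7 germ-like clusters. In 2 of these the difference shrank without doublets. The share of all genes with such an interval was not computed for single clusters. In cluster 9 it was at 12.8 CPM in KO and 5.45 CPM in WT, and in cluster 6, led by Nr3c1, at 14.5 and 7.81 CPM. Without called doublets, which made up 5.79% and 19.1% of the KO cells of these clusters, the levels in KO were 6.10 and 5.23 CPM and those in WT 4.68 and 4.92 CPM, with overlapping intervals. In cluster 7, led by Gm29666, Irx3 was at 6.49 CPM in KO and 3.27 CPM in WT on 48 and 15 UMIs, a log2 ratio of 0.99 (0.13 to 1.93), and at 6.52 and 3.29 CPM without doublets, so it did not move there. Irx2 moved little in clusters 9 and 6, from 7.13 to 6.99 CPM and from 12.8 to 13.1 CPM in KO.

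Among the listed genes with at least 100 UMIs in granulosa-like cells, none was past 0.5, against 5.56% of all 11098 genes. Foxl2, Mmp2, Cdh5, Apcdd1 and Cdh1 were past 0.5 on fewer UMIs and were not counted. Of 14 pregranulosa regulators 13 had enough UMIs, with a median log2 ratio of -0.09. They ran from Nr0b1, a nuclear receptor gene of the gonad, at -0.38, to the homeobox gene Lhx9 at 0.10. Of 12 WNT pathway genes 11 had enough UMIs, with a median of -0.15, from the transcription factor gene Lef1 at -0.25 to the WNT target Sp5 at 0.04. Of 11 cell contact genes 8 had enough, with a median of -0.06, from the gap junction gene Gja4 at -0.22 to the receptor gene Kit at 0.49. Of 5 neighbours of the 2 Iroquois clusters 3 had enough, with a median of 0.01, from Fto at -0.29 to Crnde at 0.19. The 2 members had a median of -0.36, and all 11098 genes a median of -0.02. The ratio of Irx5 was below that of each gene of these lists that reached the minimum. Foxl2, with 48 WT and 51 KO UMIs, fell just short of it and was lower than Irx5, at -0.53 (-1.13 to 0.07). Irx3os, with 166 WT and 216 KO UMIs, was at -0.24 (-0.54 to 0.06), beside -0.22 for Irx3.

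All 13 measured pregranulosa regulators were higher in granulosa-like than in germ-like cells by a log2 ratio of 2 or more in both libraries, as were Irx3 and Irx5. Of the WNT pathway genes 7 of 12 were, and of the cell contact genes 1 of 9 in WT and 2 of 9 in KO, against 18.3% of all genes in WT and 19.4% in KO. The share of cell contact genes was thus near that of all genes.

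The genes whose levels ran most like each member were found over 13 points, the classes with at least 20 cells in each library, by Pearson's r of log2(CPM + 1) among 12470 genes. The points share 2 libraries and differ in depth, so r is a description. For Irx3 the 5 closest were Gm17660 (r = 0.98), Lzts1, Aldh1a1 (a retinaldehyde dehydrogenase), Mgst3 and Lrrn1 (r = 0.95). Aldh1a1 was at 197.2 CPM in WT granulosa-like, 78.7 CPM in epithelia-like and 1.58 CPM in germ-like cells. For Irx5 they were Avpi1 (r = 0.97), Mia, Sh3tc2, Nr0b2 and Ttll12 (r = 0.93), and Mia was at 93.5, 75.4 and 0.80 CPM in those classes. For Irx2 they were Trmo (r = 0.99), Atm (a kinase of the DNA damage response), Btaf1, Vamp3 and Taf1b (r = 0.98). Some points of Irx2 rest on few UMIs, with 0 in WT and 4 in KO endothelia-like cells. Immune-like cells had 1 in each library. Irx3 and Irx5 were at r = 0.86 with each other, and Irx3 ranked 68 among the genes closest to Irx5. Irx2 was at r = -0.50 with Irx3 and -0.28 with Irx5. Irx1 had too few UMIs for this measure.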

How the data were processed

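UMI counts per gene and barcode were deposited by the authors as whole numbers, made with Cell Ranger (3.0.2 per the file headers), with mm10 and Seurat 3.2.3 named in the processing notes. No other per-sample column was present. Coordinates came from GENCODE M21 (GRCm38, the same build), which matched 98.7% of identifiers. Cells were kept within 1500 to 6500 genes and 5500 to 40000 UMIs (WT) or 1200 to 5500 genes and 3000 to 30000 UMIs (KO), with under 10% mitochondrial UMIs, as in the study. Clustering used scanpy 1.11.5 on 2000 variable genes without the Iroquois genes (2 were among them) and Leiden resolution 0.5. Clusters were named "-like" from 8 markers per class, and these rebuilt names may differ from the study's. Doublets were called with Scrublet (expected rate 8%) only for an alternative. UMIs were summed per class as CPM with exact Poisson intervals. Ratios had exact conditional and shares Clopper-Pearson intervals, all 95%. A count of 0 was read as up to 3 counts. No p-values were computed. The scripts were tested on simulated data. All 4 members were named, list genes were named where past the fold or, with none past it, at the extremes, and the 5 genes of closest pattern were named for each member with at least 200 UMIs per library. The members and lists were chosen with earlier results of these data known. Alternatives covered cell limits, doublets, resolution, marker-clean cells, scaling, thinning and the low-count filter.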

Additional observations from a re-analysis of the deposited data

Results flagged for a closer look

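Barcodes outside the limits on cells entered no comparison and still held Iroquois UMIs above the level of 3 counts. Over 2385 such WT barcodes Irx3 was at 70.5 CPM, Irx5 at 20.4 CPM, Irx2 at 9.8 CPM and Irx1 at 0.827 CPM. Over 2327 such KO barcodes Irx3 was at 60.5 CPM, Irx5 at 13.9 CPM, Irx2 at 8.43 CPM and Irx1 at 0.536 CPM. The barcodes were not assigned to classes, and each value stands with no explanation.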

How the results depend on the processing

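Of 80 recalculated ratios, shares and co-detection values, 48 stayed within the counting interval of the reported value. No log2 ratio among them changed sign. Of 193 recalculated levels and gene counts, 91 moved past the limit set for them, for levels the same counting interval. Levels left it 26 times in marker-clean cells, 24 times with the alternative scaling and 21 times without called doublets. The log2 ratio of Irx3 in granulosa-like over germ-like cells was 6.57 in WT under common limits on cells. Without called doublets it was 6.66 in WT and 6.67 in KO, in marker-clean cells 6.84 and 6.74, and as a mean over cells 6.24 in KO. For Irx5 it was 4.71 in WT under common limits, 4.68 in WT and 4.64 in KO without doublets, and 4.89 and 4.51 in marker-clean cells. The log2 ratio of Irx2 in germ-like over theca-like cells was 1.97 in KO under common limits, below the limit of 2, and 3.49 in KO without doublets. In marker-clean cells it was 6.15 in WT and 4.99 in KO, and as a mean over cells 3.70 and 3.14. The KO over WT log2 ratio of Irx3 in granulosa-like cells was -0.32 under common limits, -0.12 without doublets and in marker-clean cells, and -0.17 as a mean over cells and after thinning. For Irx5 it was -0.57 under common limits and -0.51 in marker-clean cells, past 0.5, and -0.34 without doublets and -0.31 after thinning. Without thinning, the share of granulosa-like cells with an Irx3 UMI was 94.2% in WT and 91.3% in KO, and with an Irx5 UMI 60.3% and 42.8%. The thinned Irx3 share in KO was 71.3% without doublets and 70.5% in marker-clean cells. With no filter on low counts, 3737 of 16849 genes (22.2%) passed a KO over WT log2 ratio of 0.5 in granulosa-like cells, against 617 of 11098. The cause of these moves was not tested. No paired analysis was possible because each genotype had 1 library. Depth limits Irx1 most, with 110 WT and 108 KO UMIs in germ-like cells.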
